A study of Homo sapiens with 10 samples.

Results

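The 10 genes described here encode histone deacetylases of class I (HDAC1, HDAC2, HDAC3), histone deacetylases of class IIa (HDAC4, HDAC5, HDAC7, HDAC9) and sirtuins (SIRT1, SIRT2, SIRT6). An island, a stretch of chromatin where antibody reads exceed the control, was taken as belonging to a gene if it overlapped the gene's hg19 interval widened by 10 kb on each side. By that rule 973 islands of the 778773 in the 9 island lists belonged to the 10 genes. The choice of islands used positions alone and no measured value, while the genes were chosen with earlier results of these data known.

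Histone deacetylases remove acetyl groups from lysines in histone tails and in other proteins. HDAC1 and HDAC2 are the zinc-dependent catalytic subunits of the SIN3, NuRD and CoREST co-repressor complexes, and HDAC3 is that of the NCoR and SMRT complexes. The class IIa enzymes have little deacetylase activity of their own, shuttle between cytoplasm and nucleus under control of phosphorylation, and bind MEF2 transcription factors. Sirtuins need NAD+. SIRT1 and SIRT2 act on acetylated H4K16 among many substrates, SIRT2 being mainly cytoplasmic, and SIRT6 removes acetyl groups from H3K9 on chromatin. The genes thus encode members of the deacetylase families, some of which remove the kind of mark that was mapped over them.

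The marks were mapped by CUT&RUN, in which an antibody tethers a nuclease that releases the chromatin fragments it binds. The cells were immortalized human astrocytes (IHA), a line of fetal origin carrying SV40, with a doxycycline-inducible IDH1-R132H. This mutant isocitrate dehydrogenase makes 2-hydroxyglutarate, which inhibits enzymes that depend on 2-oxoglutarate. H3K9ac, H3K27ac and H4K16ac were each profiled in cells without doxycycline, after 2 days and after 7 days at 1 µg/ml, with 200000 cells per reaction. The control was 1 library without doxycycline made with an HRP-linked secondary antibody. With a single library per mark and time there was no replicate error, no test was possible, and differences are given as ratios with a 95% counting interval that covers the drawing of reads only. Because the libraries were amplified without molecular barcodes, reads may repeat 1 molecule, and these intervals may be too narrow. All groups carried the inducible construct, so the effects of doxycycline, time in culture and IDH1-R132H cannot be told apart. The lists hold no gene expression, and astrocyte markers were not analysed here.

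Triplets of values below run in the order no doxycycline, 2 days, 7 days. The H3K9ac libraries were 3.05, 4.17 and 4.88 times the size of the HRP library. Those of H3K27ac were 3.98, 3.15 and 1.49 times its size, and those of H4K16ac 2.53, 3.08 and 7.88 times. Reads below were divided by these values and are called scaled reads. Size ran down over time for H3K27ac and up for H3K9ac and H4K16ac, and the length called as islands ran with it. Islands touching the windows came to 360, 404 and 467 kb for H3K9ac. They came to 371, 320 and 272 kb for H3K27ac and 401, 519 and 933 kb for H4K16ac. Since summed reads move with called length, values per kb of island are also given.

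Promoter sequences are shown for the genes whose 5′ ends differed most in the islands they carried. SIRT2 was alone in having an H4K16ac island at its 5′ end in every list, SIRT6 carried a single island per H3 mark and no H4K16ac, and SIRT1 had a lower share of its H3K9ac reads at the 5′ end at 2 and 7 days. HDAC9 had its largest H3K27ac region far inside the gene, near an internal annotated start. Each sequence is RefSeq's, on GRCh38.p14, and runs 5′ to 3′ from 250 bases before the annotated start to 50 after it. Capitals mark CG dinucleotides.
SIRT1 (chr10:67884406-67884705, plus strand): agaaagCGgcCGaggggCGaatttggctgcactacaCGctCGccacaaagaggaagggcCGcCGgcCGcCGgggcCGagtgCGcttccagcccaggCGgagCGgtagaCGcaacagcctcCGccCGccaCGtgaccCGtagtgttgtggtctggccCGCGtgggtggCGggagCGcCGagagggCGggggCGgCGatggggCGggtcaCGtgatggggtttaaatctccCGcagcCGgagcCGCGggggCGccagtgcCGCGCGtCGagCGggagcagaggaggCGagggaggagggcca
SIRT2 (chr19:38899569-38899868, minus strand): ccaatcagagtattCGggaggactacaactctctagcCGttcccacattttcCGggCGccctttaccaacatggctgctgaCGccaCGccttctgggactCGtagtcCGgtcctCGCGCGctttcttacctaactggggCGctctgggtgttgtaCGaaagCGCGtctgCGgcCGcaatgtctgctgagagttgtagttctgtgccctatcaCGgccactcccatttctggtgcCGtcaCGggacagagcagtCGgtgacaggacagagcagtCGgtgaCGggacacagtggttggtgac
SIRT6, first start (chr19:4182514-4182813, minus strand): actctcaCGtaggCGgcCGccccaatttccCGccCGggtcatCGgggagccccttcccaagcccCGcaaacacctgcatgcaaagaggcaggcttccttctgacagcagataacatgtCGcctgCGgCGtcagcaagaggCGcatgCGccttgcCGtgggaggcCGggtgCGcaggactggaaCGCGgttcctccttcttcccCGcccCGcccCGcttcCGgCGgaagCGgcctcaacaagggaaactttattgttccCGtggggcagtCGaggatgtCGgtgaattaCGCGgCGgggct
HDAC9, first start (chr7:18086575-18086874, plus strand): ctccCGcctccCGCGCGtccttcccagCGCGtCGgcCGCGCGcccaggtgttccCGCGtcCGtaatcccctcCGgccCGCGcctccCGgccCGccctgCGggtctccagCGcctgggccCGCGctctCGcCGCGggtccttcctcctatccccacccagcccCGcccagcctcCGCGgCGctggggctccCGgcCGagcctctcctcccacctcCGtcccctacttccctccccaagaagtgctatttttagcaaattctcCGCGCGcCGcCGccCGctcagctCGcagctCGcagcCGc
HDAC9, last start (chr7:18509020-18509319, plus strand): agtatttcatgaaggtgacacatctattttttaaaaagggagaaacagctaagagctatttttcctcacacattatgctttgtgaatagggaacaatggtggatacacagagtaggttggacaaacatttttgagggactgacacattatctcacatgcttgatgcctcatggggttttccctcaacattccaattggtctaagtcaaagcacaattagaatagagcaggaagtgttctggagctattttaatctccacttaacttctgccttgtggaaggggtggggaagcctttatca

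The first promoters held 39 CG in SIRT1, 23 in SIRT2, 29 in SIRT6 and 41 in HDAC9, whereas the HDAC9 start 422 kb downstream held 0. Over all 35116 RefSeq promoters of this length the median was 14, with quartiles of 4 and 28. Among the 9 genes with a promoter entry (HDAC5 had none), the count at the first start ran from 23 to 41. The other internal starts of HDAC9 held 5 each. HDAC4 was like HDAC9, with 40 CG at its first start and fewer at its internal starts. Those held 3 at 126.9 kb downstream, 10 at 128.0 kb, and 5 or 10 at the others. The letters GGGCGG, searched on both strands, occurred 4 times in SIRT1, 4 times in SIRT6 and 3 times in the first HDAC9 promoter. They had 0 matches in SIRT2 and in the last HDAC9 promoter, and 45.0% of all promoters held at least 1. CCAAT, also searched on both strands, had 1 match in SIRT2, 1 in SIRT6 and 2 in the last HDAC9 promoter, and 34.6% of all promoters held it.

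The widened windows differed in length from 29 kb for SIRT6 to 931 kb for HDAC9, so levels are compared per kb of window. HDAC7 had the highest level of H3K27ac of the 10 genes at every time, at 12.2, 10.3 and 13.4 scaled reads per kb over the 3 times. HDAC3 followed at 8.60, 9.03 and 9.24 and HDAC5 at 8.56, 7.79 and 10.6. The intervals of HDAC3 and HDAC5 overlapped without doxycycline and at 7 days, so their order is not fixed at this depth. HDAC4 and HDAC9, the longest genes, lay at or near the bottom, HDAC4 at 0.958, 1.00 and 1.43 and HDAC9 at 1.07, 1.07 and 0.779 scaled reads per kb.

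HDAC7, HDAC3 and HDAC5 also led for H3K9ac at all 3 times. HDAC7 stood at 4.76, 4.85 and 4.70 scaled reads per kb and HDAC3 at 4.68, 4.63 and 4.07, with overlapping intervals except at 7 days. SIRT6 was lowest at 0.339, 0.438 and 0.473. In this ranking SIRT1 stood at 1.67 scaled reads per kb without doxycycline, with an interval that overlapped those of HDAC1 and HDAC2. At 2 days and 7 days it stood at 3.20 and 2.87, with intervals clear of HDAC1. H4K16ac gave another order. SIRT2 stood second for this mark without doxycycline, at 3.11 scaled reads per kb behind HDAC7 at 3.87, while HDAC2 was lowest of the 9 genes with an island at 0.689. At 2 days HDAC3 led at 3.74 scaled reads per kb and HDAC1 was lowest at 0.696. At 7 days the levels lay closer together, from 4.37 in HDAC7 to 1.78 in HDAC1, and the intervals of HDAC9, HDAC4, HDAC2 and HDAC1 overlapped between neighbours.

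**Figure D1:**
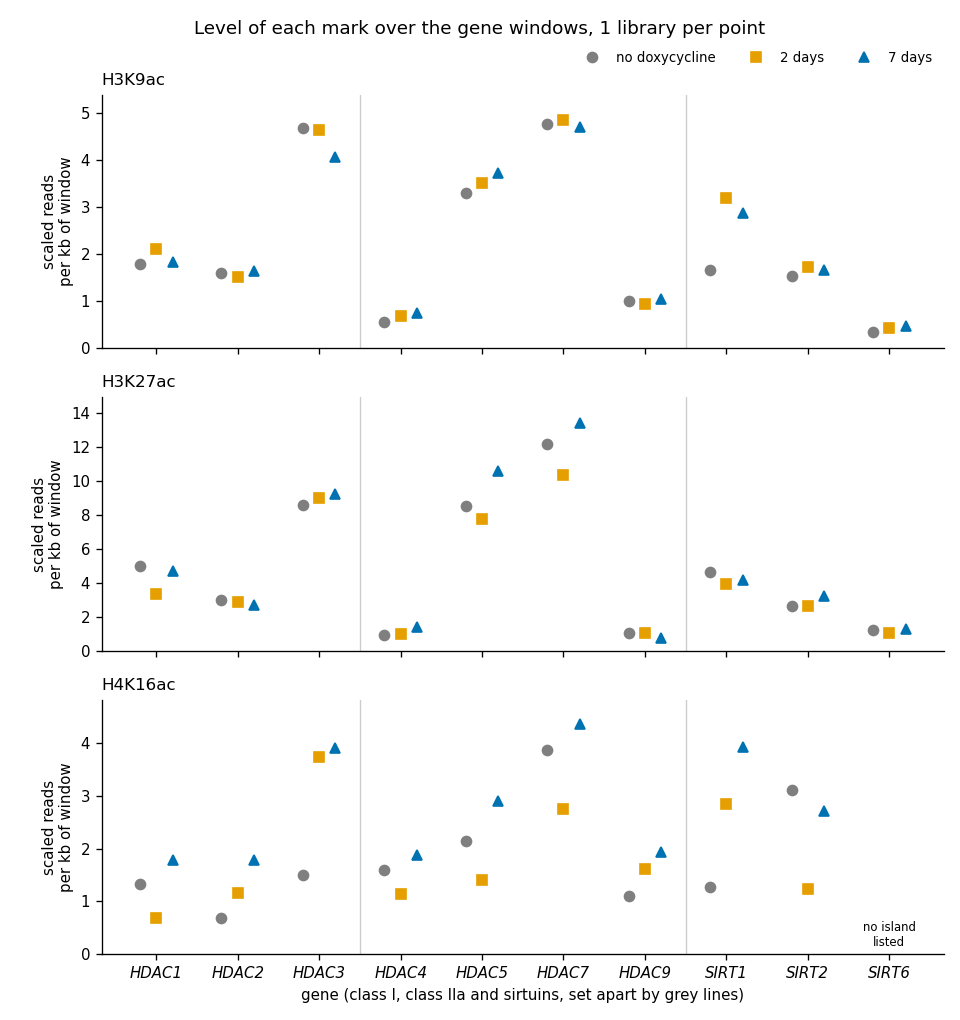
Level of each mark, in scaled antibody reads per kb of gene window (linear axis), for the 10 genes. Each point is 1 library and there are no error bars; HDAC7, HDAC3 and HDAC5 stand high for both H3 marks, and SIRT6 had no H4K16ac island listed.

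Islands of the H3 marks were present at the 5′ ends of nearly all these genes, and H4K16ac islands mostly were not. An H3K9ac island lay within 2 kb of the 5′ end in 10 of 10 genes in all 3 lists, while 19.2%, 21.3% and 21.6% of all 4 kb stretches of the genome were touched by an island at the successive times. For H3K27ac the counts were 10, 9 and 10 genes, against 15.6%, 14.7% and 16.1% of stretches. The gene without an H3K27ac island at 2 days was HDAC9, where the nearest lay 44.8 kb away. H4K16ac islands lay at 2, 3 and 5 of the 5′ ends, against 20%, 20% and 27% of stretches, which for 10 genes is close to the genome's share until 7 days. HDAC4, HDAC9, SIRT1 and SIRT6 had none there in any list. For HDAC2 the 5′ end was set from the RefSeq gene length, since the given interval runs about 40 kb beyond it; with the given end both H3 marks had islands at 9 of 10 in every list, and H4K16ac at 2, 2 and 5.

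In reads per kb, the 5′ islands stood at a median percentile of 92.9 within their own H3K9ac list, 87.3 in those of H3K27ac and 81.5 in those of H4K16ac. The lowest percentiles were 51.9, 7.57 and 15.6, so some 5′ islands were among the sparser ones. The median share of a window's reads that lay in them came to 25.7%, 27.4% and 24.0% in the H3K9ac lists. It was 41.0%, 40.6% and 52.5% for H3K27ac and 0%, 0% and 5.1% for H4K16ac. Each 5′ island was counted whole, such as the 31.4 kb H3K27ac island of HDAC7 without doxycycline. Islands further inside the gene held median shares of 50.9%, 55.4% and 71.8% for H3K9ac. Those shares were 47.0%, 23.8% and 31.3% for H3K27ac and 79.8%, 72.4% and 67.3% for H4K16ac. Genes differed widely around those medians. All H3 reads of SIRT6 lay at its 5′ end, as did 100%, 100% and 92.2% of the H3K27ac reads of SIRT2, against at most 1.48% of those of HDAC9. Over the 10 genes the 5′ H3K27ac reads at 7 days stood at a median log2 ratio of 0.13 over no doxycycline, with a range of -0.04 to 0.48. At 2 days the median was -0.13 over the 9 genes with islands in both lists. The H3K9ac medians at the 5′ ends were -0.02 and 0.06. Per kb of island the 5′ medians were 0.05 at 2 days and 0.70 at 7 days for H3K27ac, the 7-day range being -0.05 to 1.66. For H3K9ac they were -0.15 at both times.

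**Figure D2:**
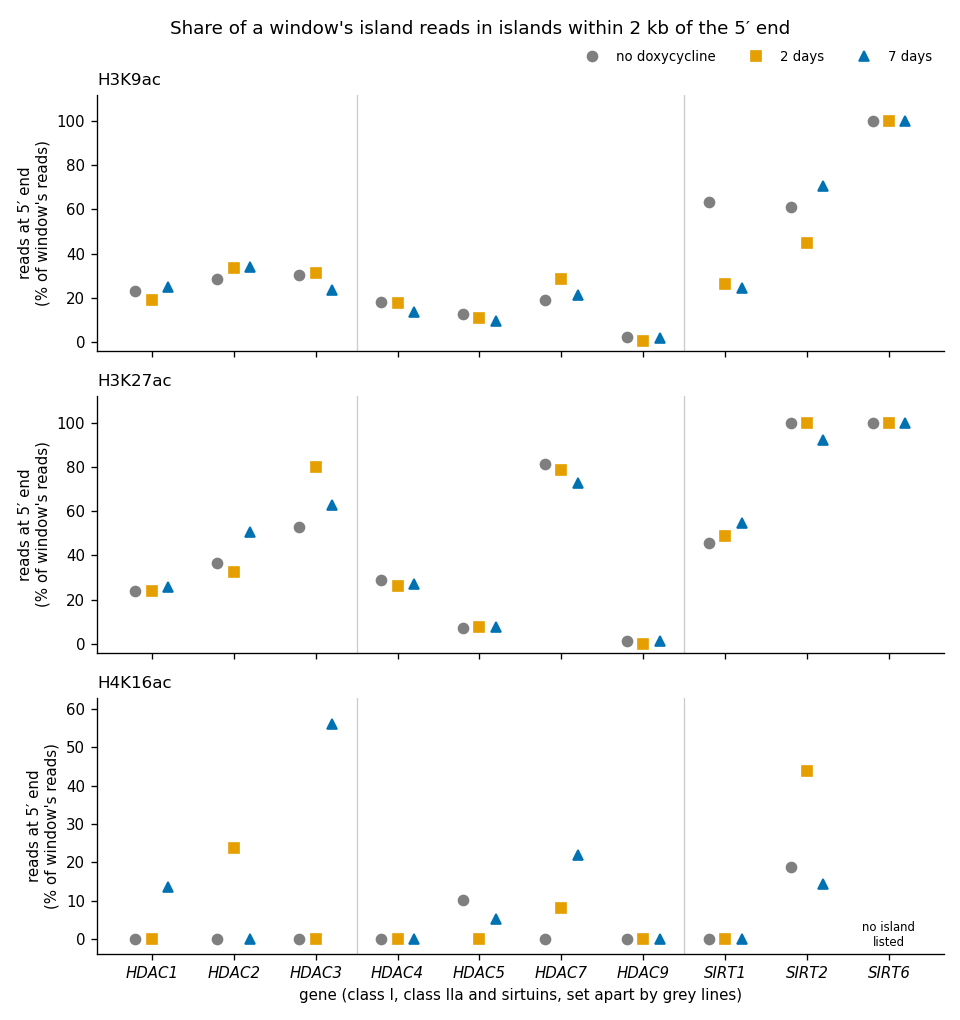
Percent of the island reads in each gene window that lay in islands within 2 kb of the 5′ end, by mark and time, 1 library per point. SIRT6 and SIRT2 held nearly all H3K27ac reads at the 5′ end, HDAC9 almost none, and the SIRT1 H3K9ac share was lower at 2 and 7 days.

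Over time, most gene windows kept within 1.5-fold of the library without doxycycline in the H3 marks, and H4K16ac varied more. For H3K9ac at 2 days, 1 of 10 windows was past 1.5-fold higher and 0 lower, against 15.8% and 17.3% of 60 kb tiles of the genome. At 7 days it was again 1 higher and 0 lower, against 19.3% and 14.7% of tiles. The window past the threshold was that of SIRT1 both times. For H3K27ac no window passed 1.5-fold at 2 days, against 4.13% of tiles higher and 11.3% lower, nor at 7 days, against 11.8% and 20.4%. For H4K16ac at 2 days, 3 of 9 windows were higher (HDAC2, HDAC3, SIRT1) and 3 lower (HDAC1, HDAC5, SIRT2), against 29.2% and 22.9% of tiles. At 7 days 4 of 9 were higher (HDAC2, HDAC3, HDAC9, SIRT1) and 0 lower, against 55.3% and 7.36% of tiles. These shares are near or below those of the tiles, apart from the 3 of 9 lower for H4K16ac at 2 days. None marks the 10 genes as a group. Because the windows ran from 29 to 931 kb and the tiles were 60 kb, the tile shares are only a rough base.

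The median log2 ratio over the windows was 0.13 at 2 days and 0.08 at 7 days for H3K9ac, where the tiles stood at -0.02 and 0.05. It was -0.11 and 0.07 for H3K27ac, with tiles at -0.12 and -0.11. For H4K16ac it was -0.49 and 0.44, with tiles at 0.13 and 0.68. Per kb of island the sign of several of these turned: H3K9ac had medians of -0.11 and -0.21, H3K27ac of 0.10 and 0.38, and H4K16ac of -0.18 and -0.48, with all 9 H4K16ac windows below 0 at 7 days. When 7 days was set against 2 days, 6 of 9 H4K16ac windows were past 1.5-fold higher and 0 lower, against 49.2% and 5.53% of tiles, and no window of either H3 mark was past it in either direction, against 18.2% of tiles higher and 12% lower in H3K9ac and 18.6% and 16.3% in H3K27ac.

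**Figure D3:**
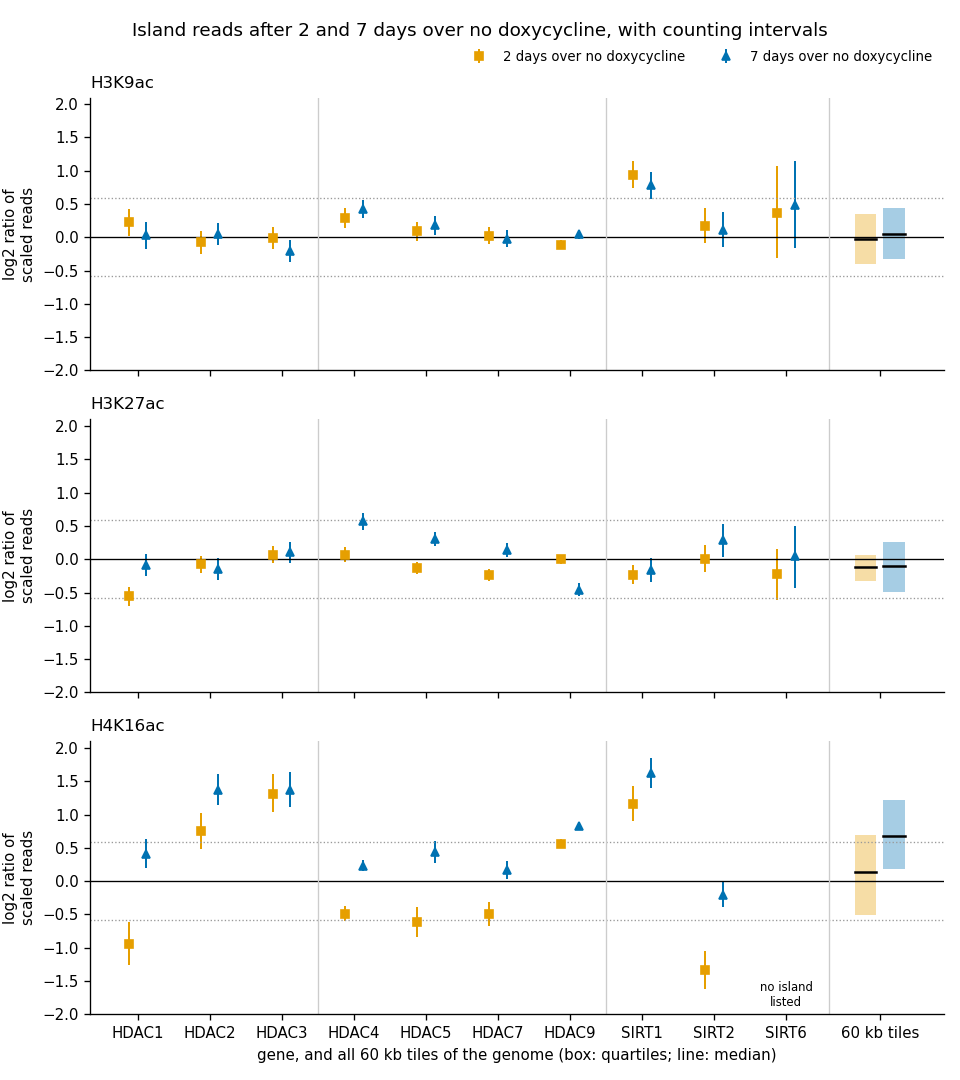
Log2 ratio of scaled island reads in each gene window at 2 days and at 7 days over no doxycycline. Bars are 95% counting intervals, dotted lines are 1.5-fold, and the boxes at the right are the quartiles and median of all 60 kb tiles; SIRT1 stands out for H3K9ac, and the H4K16ac ratios at 2 days spread from -1.33 to 1.31.

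Among the class I genes, HDAC1 had 335, 535 and 547 H3K9ac reads, 1213, 652 and 429 H3K27ac reads and 206, 131 and 854 H4K16ac reads in its window (chr1:32748001-32809000). After scaling, H3K27ac and H4K16ac were lowest at 2 days. The H3K27ac log2 ratio at 2 days was -0.56 (counting interval -0.70 to -0.42) and that at 7 days -0.08 (-0.25 to 0.08). Per kb of island the 2-day difference was -0.02, since the called length was 26.0 kb at 2 days and 37.8 kb without doxycycline. For H4K16ac the log2 ratios were -0.94 (-1.26 to -0.61) at 2 days and 0.41 (0.19 to 0.64) at 7 days, the 7-day value being -0.77 per kb of island and -0.097 when scaled by the reads in islands. The HDAC1 5′ island itself carried 291, 155 and 111 H3K27ac reads, with log2 ratios of -0.57 and 0.03. The protein-coding genes LCK and MARCKSL1 lie within 10 kb of HDAC1 in RefSeq, so part of the window's signal may belong to them.

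Over their whole windows HDAC2 and HDAC3 had ratios near 0 in both H3 marks and higher H4K16ac, but parts of the windows differed. The HDAC2 H3K27ac region 8.3 to 27.1 kb inside stood at -1.11 (-1.57 to -0.67) at 7 days, and 0.72 per kb. Upstream of the HDAC2 5′ end H3K9ac stood at -0.60 and -0.82. At 2 days H3K27ac at the HDAC3 5′ end stood at 0.67 (0.52 to 0.82), and -0.20 per kb. HDAC2 (chr6:114244001-114342000) had 478, 620 and 789 H3K9ac reads, 1184, 888 and 402 H3K27ac reads and 171, 351 and 1380 H4K16ac reads. Its H4K16ac log2 ratios were 0.75 (0.49 to 1.03) and 1.37 (1.14 to 1.61), and -0.02 and -0.46 per kb of island. Its H4K16ac region with the most reads at 2 and 7 days lay in the distal part of the gene, 22.5 to 38.1 kb from the 5′ end, with 48, 146 and 576 reads. HDAC3 (chr5:140990001-141026000) had 514, 696 and 716 H3K9ac reads, 1232, 1023 and 496 H3K27ac reads and 137, 415 and 1106 H4K16ac reads. Its H4K16ac log2 ratios were 1.31 (1.03 to 1.60) and 1.38 (1.12 to 1.64), and -0.18 and -0.43 per kb of island. Inside the unwidened gene the 2-day ratio was -0.07, so that the added reads at 2 days lay in the flanks, where RefSeq places DIAPH1, RELL2 and FCHSD1.

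Of the class IIa genes, HDAC4, HDAC5 and HDAC7 had summed H4K16ac reads that were lower at 2 days and higher at 7 days, a direction that turned under other settings. HDAC4 (chr2:239960001-240333000) had 1516, 1318 and 5544 H4K16ac reads, with log2 ratios of -0.49 (-0.59 to -0.38) and 0.23 (0.15 to 0.32). HDAC5 (chr17:42144001-42211000) had 363, 289 and 1529, with -0.61 (-0.84 to -0.39) and 0.44 (0.27 to 0.61). HDAC7 (chr12:48166001-48224000) had 569, 492 and 1996, with -0.49 (-0.67 to -0.32) and 0.17 (0.04 to 0.31). The 7-day ratios of all 3 were below the tile median of 0.68, and per kb of island they were -0.62 in HDAC4, -0.40 in HDAC5 and -0.48 in HDAC7. Scaled by the reads in islands they were -0.28 in HDAC4, -0.074 in HDAC5 and -0.34 in HDAC7. With the same number of islands per list the 2-day ratios were 0.28 in HDAC4, 0.38 in HDAC5 and -0.095 in HDAC7.

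HDAC4 had the largest H3K27ac ratio of the 10 genes at 7 days. Its H3K27ac reads were 1422, 1177 and 793, giving log2 ratios of 0.07 (-0.05 to 0.18) and 0.57 (0.45 to 0.70), and 0.22 per kb at 7 days. The island with the most H3K27ac reads in the gene was not at the 5′ end. It lay 120.6 to 130.8 kb inside (chr2:240192201-240202400) and held 576, 495 and 242 reads, or 40.5%, 42.1% and 30.5% of the window's reads, against 409, 305 and 214 at the 5′ end. RefSeq annotates HDAC4 starts 126.9 and 128.0 kb into the gene on GRCh38.p14, a match by distance only, since positions on the builds were not converted. The 7-day log2 ratio was 0.17 (-0.06 to 0.38) for the internal island and 0.48 (0.24 to 0.72) at the 5′ end. H3K9ac in HDAC4 was also higher, with 634, 1060 and 1364 reads and log2 ratios of 0.29 and 0.43, while per kb it was -0.18 and -0.36.

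Islands covered much of the windows of HDAC5 and HDAC7. HDAC5 had 674, 984 and 1222 H3K9ac reads and 2282, 1643 and 1058 H3K27ac reads, with H3K27ac log2 ratios of -0.14 (-0.23 to -0.04) and 0.31 (0.20 to 0.41). In HDAC5 only 7.32%, 7.79% and 7.56% of the H3K27ac reads lay at the 5′ end. Its islands with the most H3K27ac reads lay at or past the 3′ end of the 47 kb gene. They held 945, 416 and 336 reads, or 41.4%, 25.3% and 31.8% of the window's reads. These islands did not span the same stretch, so the shares do not follow a single region over time. A separate island in the stretch of the island without doxycycline held 329 reads at 2 days. Another that overlapped it held 59 reads at 7 days. RefSeq places the protein-coding genes LSM12 and G6PC3 within 10 kb of HDAC5, and SLC48A1 within 10 kb of HDAC7. Part of the signal in these windows may belong to them. HDAC7 had 842, 1174 and 1332 H3K9ac reads and 2811, 1886 and 1159 H3K27ac reads. Its H3K27ac formed 1 broad region around the 5′ end, from 10.0 kb upstream to 22.2 kb inside (chr12:48191801-48224000), with 2281, 1628 and 971 reads in 31.4, 25.8 and 26.8 kb of islands. The region was a single island without doxycycline and was called as 3 islands at 2 days and 5 at 7 days. Its log2 ratios were -0.15 (-0.24 to -0.06) and 0.18 (0.07 to 0.29).

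HDAC9 (chr7:18116001-19047000), like HDAC4, had its largest H3K27ac region far inside the gene. Of the 10 genes, HDAC9 had the lowest share of its H3K9ac reads and of its H3K27ac reads at the 5′ end. Its 5′ end carried 63, 20 and 81 H3K9ac reads. It carried 44 and 16 H3K27ac reads without doxycycline and at 7 days, no listed H3K27ac island at 2 days, and no H4K16ac island. The 20 H3K9ac reads at 2 days lay in 0.6 kb of island, against 3.6 kb without doxycycline, which gave a log2 ratio of -2.11 (-2.91 to -1.36) for the summed reads and 0.48 per kb. The largest H3K27ac region lay 418.4 to 437.8 kb inside the gene (chr7:18544401-18563800), around the distance of the annotated start whose promoter without CG is printed above. It held 1189, 905 and 273 reads, or 30.0%, 28.8% and 25.2% of the window's H3K27ac reads. Its log2 ratio was -0.06 (-0.18 to 0.07) at 2 days and -0.71 (-0.90 to -0.52) at 7 days, and -0.10 per kb at 7 days, when the 19.2 kb island was called as 3 islands of 12.6 kb in all.

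Over the whole HDAC9 window H3K27ac had 3968, 3140 and 1082 reads, with log2 ratios of 0.00 (-0.07 to 0.07) and -0.46 (-0.56 to -0.36), the lowest of the 10 genes at 7 days. Called length was 100.8, 95.2 and 59.8 kb, and per kb of island the 7-day value was 0.29. H4K16ac went the other way, with 2584, 4652 and 14221 reads in 176, 297 and 478 kb, and log2 ratios of 0.56 (0.49 to 0.63) and 0.82 (0.76 to 0.88), or -0.62 per kb at 7 days. H3K9ac summed to 2862, 3631 and 4745 reads with log2 ratios of -0.11 and 0.05. Opposite ratios of H3K27ac and H4K16ac at 7 days thus went with opposite library sizes, whose part in the result was not tested.

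**Figure D4:**
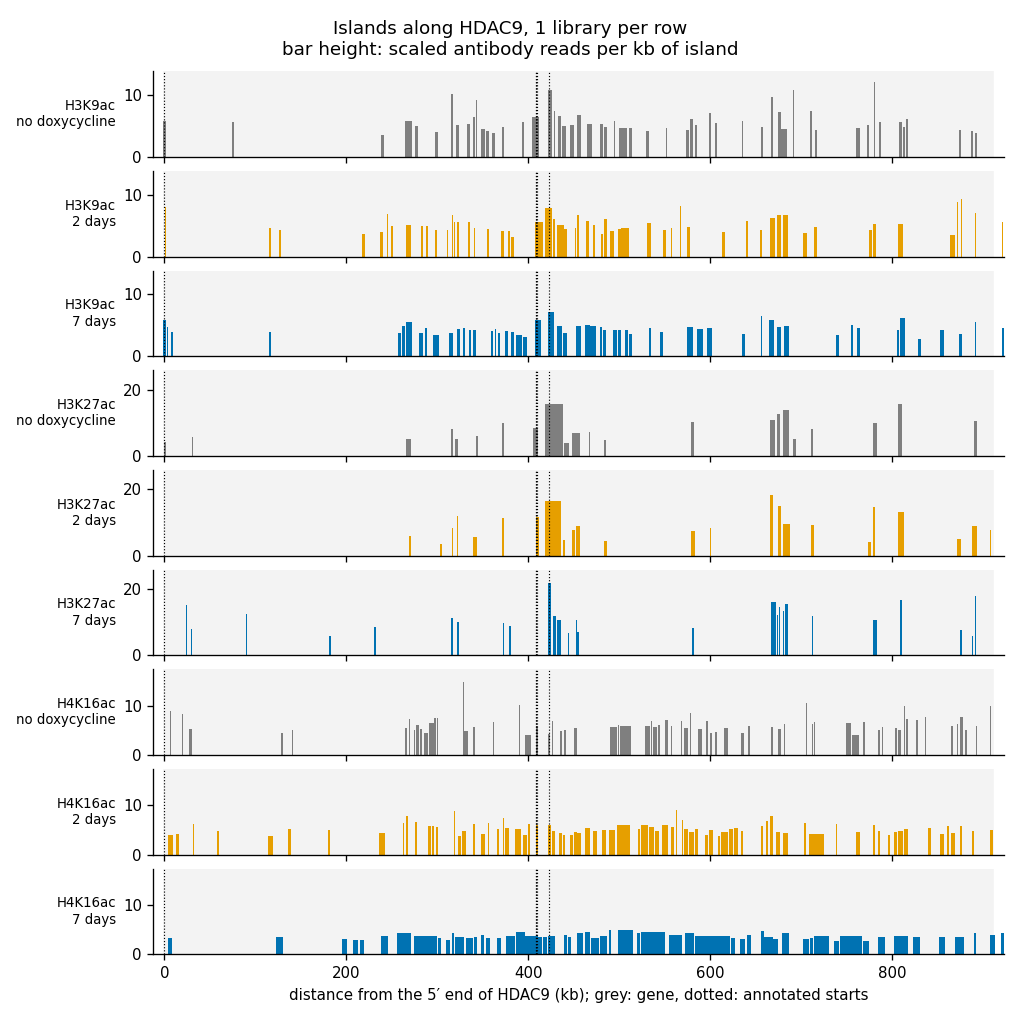
Islands along HDAC9 by distance from its 5′ end in kb, 1 library per row, with bar height in scaled reads per kb of island and a common scale within each mark. The wide H3K27ac block between 418.4 and 437.8 kb lies near the internal annotated starts (dotted) and is not the tallest in every row. The H4K16ac islands at 7 days are wide and low.

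SIRT1 (chr10:69634001-69688000) had the largest H3K9ac ratios of the 10 genes. Its window held 275, 720 and 758 H3K9ac reads, with log2 ratios of 0.94 (0.73 to 1.14) and 0.78 (0.58 to 0.99). At the 5′ end the reads were 174, 188 and 185, with log2 ratios of -0.34 (-0.65 to -0.04) and -0.59 (-0.90 to -0.28). The 5′ share of the window's reads was 63.3%, 26.1% and 24.4%. The 5′ island spanned 8.8, 5.6 and 4 kb, and per kb of island its ratios were 0.31 and 0.55. Without doxycycline it reached 8.2 kb inside the gene. From 6.4 kb inside, separate islands of 38 reads at 2 days and 48 at 7 days were not counted at the 5′ end. The added reads lay in the distal part of the gene and past its 3′ end. The region 19 to 34.4 kb from the 5′ end (chr10:69663001-69678400) held 65, 212 and 264 reads, with log2 ratios of 1.25 (0.85 to 1.68) and 1.34 (0.95 to 1.76). The region 35.0 to 44.2 kb from it (chr10:69679001-69688200) held 36, 155 and 203, with 1.65 (1.12 to 2.22) and 1.82 (1.30 to 2.37). The gene itself is 34 kb long, and HERC4 is the protein-coding neighbour within 10 kb in RefSeq.

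The SIRT1 difference came as called length and not as density. H3K9ac islands spanned 13.4, 32.0 and 28.8 kb, and reads per kb of island gave log2 ratios of -0.32 and -0.32. HRP reads in the same islands were 16, 50 and 73, and after subtracting scaled HRP reads the log2 ratios were 0.72 at 2 days and 0.15 at 7 days. With the same number of islands taken from each list they were 0.47 and -0.08. H4K16ac over the whole SIRT1 window was also higher, with 174, 475 and 1667 reads. Its log2 ratios were 1.16 (0.91 to 1.42) and 1.62 (1.40 to 1.86), and 0.14 and -0.19 per kb of island. The islands with the most H4K16ac reads in each list held 95, 236 and 1095 reads. They lay in a region that began 14.0 kb inside the gene (chr10:69658001-69697800). Summed H3K27ac reads in the distal part were lower. In the region 27.8 to 46.4 kb from the 5′ end it had 432, 257 and 94 reads, with log2 ratios of -0.41 and -0.78. Its islands spanned 17.6, 9.2 and 9.0 kb, and per kb of island the ratios were 0.53 and 0.18. At its 5′ end SIRT1 carried 458, 331 and 184 H3K27ac reads, with log2 ratios of -0.13 (-0.34 to 0.08) and 0.10 (-0.15 to 0.35).

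**Figure D5:**
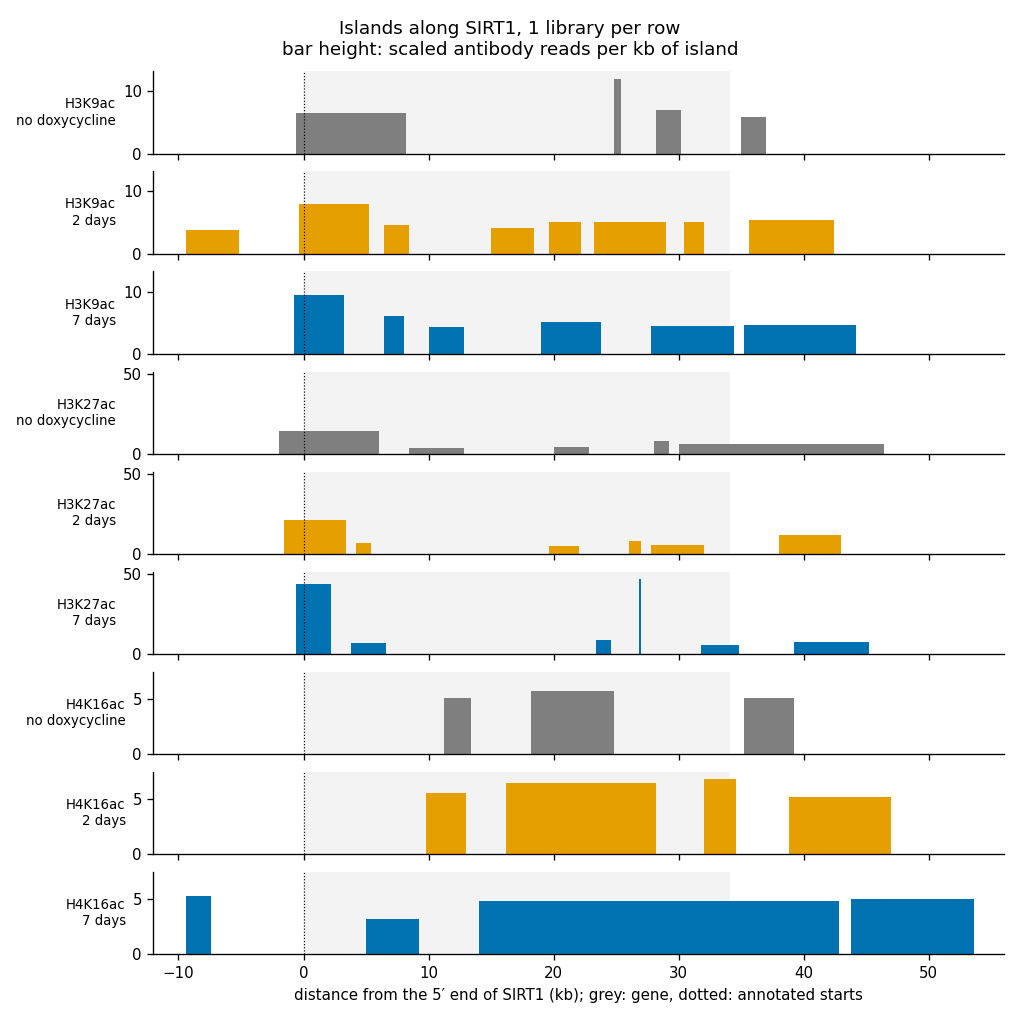
Islands along SIRT1 by distance from its 5′ end in kb, 1 library per row, with bar height in scaled reads per kb of island and a common scale within each mark. H3K9ac and H4K16ac islands cover more of the gene's distal part at 2 and 7 days, and H3K27ac is tall at the 5′ end in all 3 libraries, with a 0.2 kb island of 14 reads inside the gene taller still at 7 days.

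SIRT2 (chr19:39359001-39401000) had a 5′ island of each mark in every list. There it held 121, 137 and 243 H3K9ac reads, 447, 356 and 188 H3K27ac reads and 62, 70 and 129 H4K16ac reads. For H3K27ac the 5′ log2 ratios were 0.01 (-0.19 to 0.21) and 0.17 (-0.09 to 0.42). H4K16ac of the whole SIRT2 window was lowest at 2 days, with 331, 160 and 895 reads, log2 ratios of -1.33 (-1.61 to -1.06) and -0.20 (-0.39 to -0.02), and -0.15 per kb at 2 days. The log2 ratio of the 5′ island alone was -0.11 (-0.62 to 0.41) at 2 days. The region 2.8 to 13.2 kb inside the gene (chr19:39377801-39388200) held 125, 39 and 321 reads, with -1.97 (-2.52 to -1.44) at 2 days and -0.28 at 7 days. At 7 days the SIRT2 5′ island stood at -0.58 (-1.03 to -0.12). RINL, NFKBIB and CCER2 are the protein-coding neighbours within 10 kb in RefSeq, so part of the window's signal may belong to them.

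SIRT6 (chr19:4164001-4193000), the shortest gene, had 1 island per H3 list, at its 5′ end, and no H4K16ac island in its window in any list. The H3K9ac island held 30, 53 and 67 reads, and the H3K27ac island 145, 98 and 56. The log2 ratios were 0.37 (-0.30 to 1.07) and 0.48 (-0.16 to 1.15) for H3K9ac and -0.23 (-0.61 to 0.15) and 0.04 (-0.43 to 0.50) for H3K27ac, so no difference was detectable at this depth. The authors' deposited fold over HRP was 39.4, 50.8 and 54.9 for H3K9ac and 146, 125 and 150 for H3K27ac, but these islands held 0 HRP reads, which the deposited values count as 0.25. The nearest H4K16ac island lay 63.4, 63.6 and 62.6 kb from the 5′ end. A list holds only stretches past the caller's threshold, so H4K16ac below it is not excluded. CREB3L3 and ANKRD24 are the protein-coding neighbours of SIRT6 within 10 kb in RefSeq, so part of the window's signal may belong to them.

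Within the windows, touching islands of a mark's 3 lists merged into 148 H3K9ac, 80 H3K27ac and 146 H4K16ac regions. Of these 37.2%, 46.3% and 34.9% were in all 3 lists, against 37.1%, 44.1% and 30.3% over the genome. Regions past 2-fold at 2 days were 2 of 68 higher and 5 lower for H3K9ac (4.69% and 9.48% of all regions), 0 of 44 and 1 for H3K27ac (0.457% and 3.38%), and 11 of 57 and 6 for H4K16ac (15.2% and 8.39%). At 7 days they were 5 of 63 and 1 for H3K9ac (5.8% and 6.2%), 0 of 41 and 3 for H3K27ac (2.2% and 8.61%), and 21 of 68 and 1 for H4K16ac (22.9% and 2.4%).

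The highest H4K16ac ratios at 7 days were 2.08 (1.41 to 2.84) in HDAC5, 21.6 to 29.0 kb inside the gene with 19, 28 and 250 reads, then 2.07 (1.40 to 2.83) and 2.07 (1.67 to 2.49) in HDAC9. Per kb of island these were -0.81, -0.55 and -1.05. The lowest H4K16ac ratio at 7 days was -1.69 (-2.09 to -1.29), also in HDAC9, with 111, 95 and 107 reads 488.6 to 497.4 kb inside, and -0.21 per kb. For H3K27ac at 7 days the lowest was -1.40 (-1.97 to -0.87), with 232, 216 and 33 reads 448.2 to 457.2 kb inside HDAC9, where the value per kb was 0.29. The highest was 0.96 (0.44 to 1.48), with 78, 78 and 57 reads 150.8 to 155.4 kb inside HDAC4, and 0.52 per kb. For H3K9ac at 7 days the lowest was -1.05 (-1.58 to -0.52), with 71, 55 and 55 reads past the 3′ end of HDAC3, and -0.69 per kb.

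The marks shared sequence to different degrees. Of the H3K27ac sequence in the windows, 57.4%, 64.3% and 62.9% was also H3K9ac at the successive times, against 55.7%, 58.1% and 59.4% over the genome. Of the H4K16ac sequence 28.7%, 25.9% and 18.2% was also H3K27ac, against 32.4%, 24.9% and 19.1% over the genome, while its length in the windows was larger at each later time. Across the 9 libraries the gene patterns most alike in log2 scaled reads per kb were those of HDAC5 and SIRT6 (Pearson r = 0.987 over the 6 H3 libraries), HDAC5 and HDAC7 (r = 0.986 over 9) and HDAC1 and HDAC5 (r = 0.980 over 9). All genes share the same libraries and the same 3 marks, so these values are descriptions. HDAC9 was least like HDAC5 (r = -0.613 over 9).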

How the data were processed

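CUT&RUN libraries of H3K9ac, H3K27ac and H4K16ac (1 per mark and time) and 1 HRP control library were made from the IHA line. By the submitters' processing notes, reads were handled with Bowtie2 2.3.5.1, cutadapt, deepTools, FastQC, Picard and SICER on hg19. Their settings were not stated in the sources. The authors called islands for each antibody library alone, against HRP. Per the file headers, each island has a raw count for the antibody and one for HRP. The deposited log2 fold is the authors' ratio of those counts less 1 constant per list, where HRP counts of 0 stand as 0.25. As deposited, the score is a fixed multiple of it, and the deposited p-value and FDR are the authors' own. The largest FDR per list lay between 0.0491 and 0.0499. The lists thus hold only sequence past a threshold. Called length and library size moved together over time within each mark, and the part of library size was not tested.

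The constant gave each library's size relative to HRP, used for scaling; 11317 of 11317 islands with equal coordinates in 36 pairs of lists had equal HRP counts. Coordinates are 1-based. Islands on chromosomes 1 to 22 and X were used, which left out 1, and 0 other columns of sample values were found. Whole islands with at least 1 bp in a window were counted. Ratio intervals are exact Clopper-Pearson intervals of the share of 2 counts, those of levels exact Poisson intervals, both at 95%. Tiles of 60 kb and merged regions were measured the same way over the genome. The code was checked on simulated data. Python 3.11.15, pandas 2.3.3 and scipy 1.17.1 were used.

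The genes, windows and lists were chosen with earlier results of these data known. All 10 genes are named; regions named are the 3 largest ratios each way per mark and time with islands in both lists and 50 or more reads in 1 of them, and from these the most extreme are given. Regions with the most reads in a gene, and regions by place in SIRT1, were chosen after their values were seen. A planned count over other deacetylase and co-repressor genes was not run, as no hg19 annotation was used here. Strands came from RefSeq, except that of HDAC5, which is from general knowledge. Alternatives are given below.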

Additional observations from a re-analysis of the deposited data

Results flagged for a closer look

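In 6 cases a gene's log2 ratio over no doxycycline had opposite signs at 2 days and at 7 days, with both counting intervals clear of 0. With 1 library per time the difference between times was not tested, and the intervals cover counting only. For H4K16ac these were HDAC1 (-0.94 and 0.41), HDAC4 (-0.49 and 0.23), HDAC5 (-0.61 and 0.44) and HDAC7 (-0.49 and 0.17). For H3K27ac they were HDAC5 (-0.14 and 0.31) and HDAC7 (-0.24 and 0.14). Relative library size beside these ratios was 3.08 at 2 days, 7.88 at 7 days and 2.53 without doxycycline for H4K16ac, and 3.15, 1.49 and 3.98 for H3K27ac; its part in them was not tested. Per kb of island the 4 H4K16ac genes were below 0 at both times, and the 2 H3K27ac genes above 0 at both. Scaled by the reads in islands, the 7-day H4K16ac ratios were also below 0, at -0.097 in HDAC1, -0.28 in HDAC4, -0.074 in HDAC5 and -0.34 in HDAC7. With the same number of islands per list, the 2-day H4K16ac ratios were above 0 in HDAC4 (0.28) and HDAC5 (0.38), and the 7-day H3K27ac ratio of HDAC7 was -0.032.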

How the results depend on the processing

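No paired analysis was possible because each mark and time had 1 library, and for the same reason no library could be left out. The settings below were planned, except subtraction of scaled HRP reads and the shorter HDAC2 window, chosen after seeing the data. Taking island reads split by length, islands at least halfway inside, FDR at most 0.001 or the shorter HDAC2 window moved no median past its interval and no count of windows past 1.5-fold by more than 1.5 times.

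Reads per kb of island moved most. The medians became -0.11 (2 days) and -0.21 (7 days) for H3K9ac, 0.10 and 0.38 for H3K27ac, and -0.48 at 7 days for H4K16ac. Windows past 1.5-fold became 0 higher at 2 days and 0 at 7 days for H3K9ac. For H3K27ac they became 1 lower at 2 days and 3 higher at 7 days. For H4K16ac they became 0 higher and 0 lower at 2 days, and 0 higher and 4 lower at 7 days. The share of tiles past 1.5-fold was not counted per kb of island, so these counts have no genome base. Single genes reversed: SIRT1 H3K9ac (-0.32 at 2 days, -0.32 at 7 days), H4K16ac of HDAC2 (-0.025, -0.46) and HDAC3 (-0.18, -0.43), and at 7 days of HDAC9 (-0.62) and SIRT1 (-0.19).

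With the same number of islands per list, the H3K9ac median at 2 days was -0.33 with 4 windows lower, and 1 was lower at 7 days; H3K27ac had 1 lower at 2 days and 3 at 7 days, with a 7-day median of -0.15; H4K16ac had 1 lower at 2 days and 7 higher at 7 days, with medians of 0.33 and 1.13. SIRT1 H3K9ac at 7 days (-0.083) and HDAC5 H4K16ac at 2 days (0.38) reversed. Without widening, H3K9ac had 0 higher at 7 days, H3K27ac 1 lower at 2 days and 1 at 7 days, and HDAC3 H4K16ac at 2 days reversed to -0.070. Scaling by reads in islands gave H3K27ac 1 higher at 7 days and H4K16ac a 7-day median of -0.074 with 1 lower. Less HRP reads, H3K9ac had 0 higher and H3K27ac 1 higher at 7 days, and H4K16ac a median of 0.15 with 1 lower. Apart from those from called length or the set of islands taken, causes were not tested. Depth limits SIRT6 most, with 30 to 145 reads per island.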
